A study of Mus musculus with 4 samples.

Results

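POMC neurons sit in the arcuate nucleus at the base of the hypothalamus. They cut the precursor pro-opiomelanocortin into peptides that include α-MSH, which acts on melanocortin receptors and lowers food intake, and β-endorphin, an opioid. Many also make CART, the product of Cartpt. They are read out against the neighboring NPY/AgRP neurons, whose AgRP blocks the same melanocortin receptors, and they respond to leptin, insulin, serotonin, opioids and sex steroids.

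The nuclei described here are those that the authors placed in the main cluster Neurons_1 and in its POMC/CART sub-cluster. They numbered 422 in wild-type and 346 in mutant libraries, together 1.36% of the 56386 annotated nuclei and 2.15% of the 35756 nuclei in Neurons_1. The samples were hypothalami of adult male mice, either wild type (WT) or heterozygous for the R384C point mutation of thyroid hormone receptor α1 (TRα1+m), a form of the receptor with reduced affinity for thyroid hormone, all on a C57/BL6NCr background. Each of the 4 libraries pooled nuclei of 3 mice, and each of 2 experimental repeats gave a WT and a TRα1+m library, so n = 2 pools per genotype. The mutation is carried in every cell and a 3′ count of Thra cannot show it, so the genotype labels were not checked by these data. The comparison of the genotypes asks whether the mutant receptor changes the number or the RNA of these neurons.

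The POMC/CART nuclei came from all libraries: 185 from WT 1, 237 from WT 2, 181 from TRα1+m 1 and 165 from TRα1+m 2. Their summed unique molecular identifiers (UMIs, counted RNA molecules) were 721658, 1248280, 692638 and 788918 in that order. Median UMIs per nucleus were 3548, 4979, 3592 and 4506, so the nuclei of repeat 2 were deeper in both genotypes. No barcode was shared between libraries among these nuclei, while the 6 pairs of libraries shared 44 to 64 barcodes over all nuclei.

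The markers of the label were described first. The authors cut the sub-cluster from the expression of these nuclei and named it by markers. A high level of Pomc or Cartpt is therefore no independent check of the label. Pomc (chromosome 12, 3954951 to 3960642, plus strand, GRCm38), the precursor gene, stood at 1104 counts per 1000000 UMIs (CPM) in WT 1, 3595 in WT 2, 1109 in TRα1+m 1 and 3302 in TRα1+m 2. Its mean of 2277 CPM ± 1357 (SD, n = 4) was 36.6 times that of the next of 11 other neuronal sub-clusters, MCH neurons, at 62.2 CPM ± 68.4 (SD, n = 4). Cartpt (chromosome 13, 99898489 to 99901091, minus strand) stood at 193, 1100, 224 and 466 CPM in the same order, with a mean of 496 CPM ± 421 (SD, n = 4). Pomc thus set this sub-cluster apart, whereas Cartpt was close to its level in MCH neurons, at 420 CPM.

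No Pomc UMI was detected in most nuclei under this label, 60.8% of them. A Pomc UMI was found in 301 nuclei, 39.2% (exact 95% interval 35.7 to 42.7), at a median depth of 4182 UMIs. In GABA neurons, at a median depth of 4180 UMIs, the share was 5.21%. In oligodendrocytes, which do not make Pomc, it was 4.87% at a lower median depth of 1605 UMIs. The source of these UMIs, such as free RNA, was not tested. At least 5 Pomc UMIs were counted in 219 nuclei, 28.5% (25.3 to 31.9), against 0.266% of GABA neurons. At least 20 were counted in 130 nuclei, 16.9% (14.3 to 19.8). Intervals cover counting error only.

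**Figure D1:**
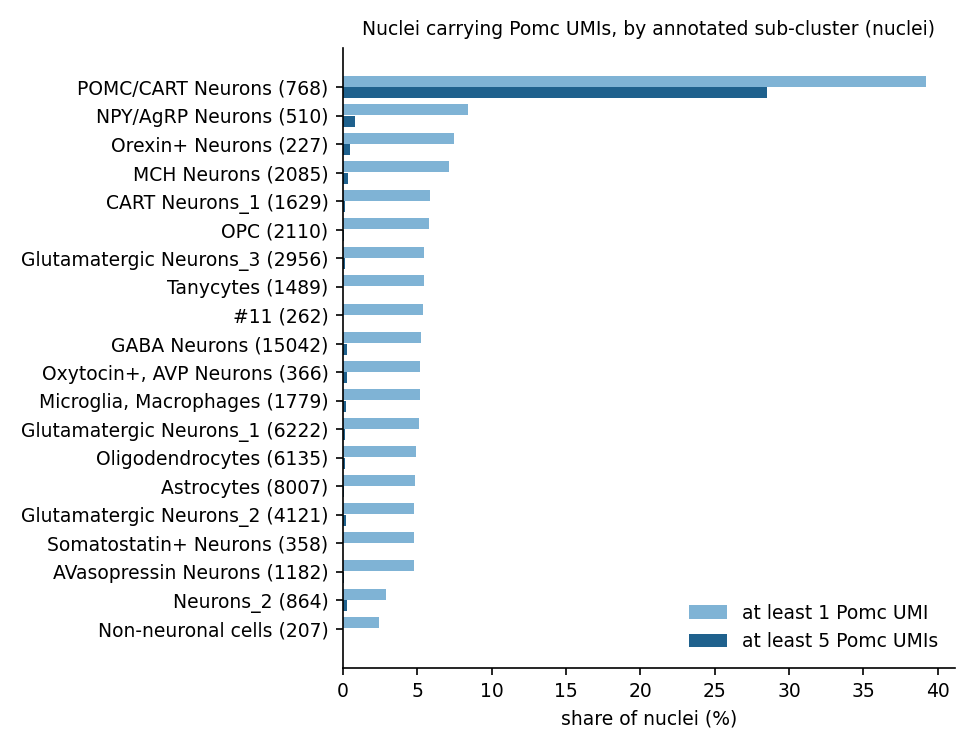
Share of nuclei with at least 1 (light bars) and at least 5 (dark bars) Pomc UMIs in each annotated cluster or sub-cluster of 100 nuclei or more, 4 libraries together, with the number of nuclei in parentheses. POMC/CART nuclei reached 39.2% and 28.5%, and NPY/AgRP neurons, the next, reached 8.43% and 0.784%.

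The Pomc RNA was concentrated in few nuclei. The 77 nuclei with the most Pomc UMIs, 10% of the sub-cluster, held 70.4% of its 8657 Pomc UMIs, and the highest nucleus held 312. Ranked within each library, the top 10% held 67.5%, 63.2%, 68.9% and 58.1% in WT 1, WT 2, TRα1+m 1 and TRα1+m 2. Conversely, the label took in most strongly Pomc-positive nuclei of the data: of 159 annotated nuclei with at least 20 Pomc UMIs, 130 were POMC/CART and 29 lay elsewhere, 15 of them in GABA neurons. Cartpt UMIs were seen in 39.7% of POMC/CART nuclei, against 56.7% in the sub-cluster CART Neurons_1, 20.95% in GABA neurons and 14.4% in oligodendrocytes.

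Pomc also differed between the experimental repeats within each genotype. At least 20 Pomc UMIs were counted in 7.03% of the WT 1 nuclei and 7.18% of the TRα1+m 1 nuclei, but in 27.0% of the WT 2 nuclei and 24.2% of the TRα1+m 2 nuclei. After every nucleus was thinned to 2000 UMIs, which left out 19 shallower nuclei, the shares were 1.14% and 1.13% in repeat 1 and 11.5% and 10.6% in repeat 2. The gap between repeats was therefore present at equal depth. The share with at least 1 Pomc UMI was 33.5%, 41.8%, 42.5% and 38.2% for WT 1, WT 2, TRα1+m 1 and TRα1+m 2, so the number of positive nuclei varied less than the amount per nucleus.

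**Figure D2:**
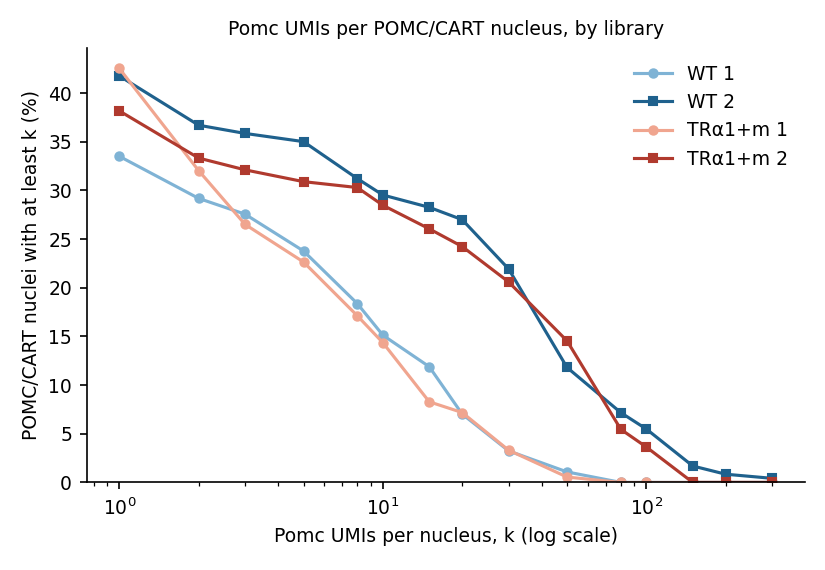
Share of each library's POMC/CART nuclei (y axis, percent) with at least k Pomc UMIs (x axis, log scale). Circles are repeat 1 and squares repeat 2, blue WT and red TRα1+m. At 1 UMI the libraries of repeat 1 are the lowest and the highest (33.5% and 42.5%), and at 20 UMIs repeat 2 is at 27.0% and 24.2% against 7.03% and 7.18% in repeat 1.

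Markers of other cell types were summed beside these genes. Pituitary endocrine markers, which matter because the pituitary also makes Pomc, summed to 5.54, 10.4, 5.78 and 10.1 CPM for 12 genes in WT 1, WT 2, TRα1+m 1 and TRα1+m 2. The prolactin gene Prl, Lhb, Pax7 and Ghrhr were at 0, and no gene of the list reached 10 CPM. Agrp and Npy summed to 58.7 CPM, against 73.1 in GABA neurons and 2765 in NPY/AgRP neurons. The 6 oligodendrocyte markers summed to 477 CPM, against 450 in GABA neurons and 15466 in oligodendrocytes, and the 5 astrocyte markers to 275 CPM, against 263 and, in astrocytes, 7941. The neuronal markers Rbfox3, Snap25 and Syt1 stood at 211, 724 and 1200 CPM.

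Which genes stood out in the sub-cluster as a whole was then described. The sub-clusters were cut from the expression of these same nuclei, so the levels below carry no test. Of 4253 genes with a mean of at least 50 CPM in this sub-cluster, 686 (16.1%) had their highest neuronal level here. At 2 or more times the next sub-cluster stood 24 (0.564%). The floor was set in this sub-cluster alone, which favors a highest level here. The 25 genes with the highest ratio were led by Pomc. Esr1, the estrogen receptor α gene, stood at 383.8, 277, 292 and 276 CPM in WT 1, WT 2, TRα1+m 1 and TRα1+m 2, and its mean was 6.06 times that of GABA neurons. Pgr, the progesterone receptor gene, had a mean of 223 CPM ± 15.5 (SD, n = 4), 2.98 times the next sub-cluster. Prlr, the prolactin receptor gene, had 453 ± 77.5, a ratio of 3.44, and Rxfp1, the relaxin receptor gene, 186 ± 43.4, a ratio of 4.92.

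The neuropeptide Y receptor genes Npy1r and Npy5r, through which NPY acts on POMC neurons, stood at 91.4 CPM ± 29.5 and 69.9 ± 23.5 (SD, n = 4). These were 6.35 and 3.35 times the level in NPY/AgRP neurons, the next sub-cluster for both. Greb1, an estrogen-responsive gene, had a ratio of 9.59 at 105 CPM ± 35.5, and the lowest library was TRα1+m 1 at 52.0 CPM. Tac2, which encodes neurokinin B, a peptide of arcuate neurons that control gonadotropin release, had 277 CPM ± 141 and a ratio of 4.40. The remaining leaders were Col24a1, Vgll3, Tnxb, Hs3st5, Gfra1, Tmem266, F730043M19Rik, Chst11, Tbx3os1, Sned1, Tmem200a, Ror2, Ammecr1, Tmem164, Pcdh11x and Gm32014, with ratios from 1.94 to 6.67. Hs3st5, a heparan sulfate sulfotransferase gene, stood at 1382 CPM ± 93.2 (SD, n = 4). Tbx3os1 is annotated antisense to Tbx3, and the strand setting of the counts is not given in the sources used here, so reads of the pair may be mixed.

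Genes of energy sensing were present at modest counts. Lepr, the leptin receptor gene, averaged 33.7 CPM ± 16.02 (SD, n = 4), Insr, the insulin receptor gene, 116 ± 11.1 and Ghr, the growth hormone receptor gene, 256 ± 30.5. The melanocortin receptor genes Mc3r and Mc4r were at 5.36 and 3.84 CPM, and Ghsr, the ghrelin receptor gene, at 2.02 CPM. Of the 26 receptors listed, 20 reached 10 CPM and 6 had their highest level here, among them Npy1r, Npy5r and Esr1, and also Mc3r and Mc4r, at so few UMIs that the rank carries little. Of all genes with at least 50 CPM in this sub-cluster, 16.1% had their highest level here. That floor was not set for the receptors, so the count does not set the list apart. Of 5 markers of kisspeptin, GHRH and dopamine neurons of the arcuate nucleus, Kiss1, Ghrh, Th and Slc6a3 were at 1.18, 4.63, 2.36 and 2.53 CPM, while Tac2, which kisspeptin neurons also make, was at 277 CPM, against 63.0 in GABA neurons. The part of such neurons in the sub-cluster was not tested.

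Because Pomc split the nuclei so unevenly, nuclei with at least 5 Pomc UMIs were set beside those with none. The split was chosen after the counts had been seen and is given as a description with no test. The Pomc-rich nuclei numbered 44, 83, 41 and 51 in WT 1, WT 2, TRα1+m 1 and TRα1+m 2, and the nuclei without Pomc 123, 138, 104 and 102. Median depth was 5102 UMIs in the first class and 3892 in the second, and the intermediate 82 nuclei with 1 to 4 UMIs were left aside. Of 4605 genes with at least 50 CPM in either class, 372 (8.08%) were higher in the Pomc-rich class with no overlap between the 4 libraries of each class, and 313 (6.80%) were lower.

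Cartpt and Lepr were higher in the Pomc-rich class, while many listed genes overlapped. Cartpt stood at 471, 2474, 543 and 1069 CPM in the Pomc-rich nuclei of WT 1, WT 2, TRα1+m 1 and TRα1+m 2, and at 80.2, 221, 113 and 49.5 CPM in the nuclei without Pomc. A Cartpt UMI was found in 75.3% of the Pomc-rich nuclei and in 24.8% of those without Pomc, the latter near the 20.95% of GABA neurons. Among the receptors, 6 of the 14 with enough counts were higher without overlap, 1 was lower and 7 overlapped. Of all genes, 8.08% were higher and 6.80% lower, and no test was made of the difference. Lepr averaged 88.9 CPM in the Pomc-rich class and 8.27 in the other, Oprm1, the µ opioid receptor gene, 254 and 73.2, and Ghr 455 and 137. Htr2c, the serotonin 2C receptor gene, Nr3c1, the glucocorticoid receptor gene, and Ntrk2, the BDNF receptor gene, were the other 3. Esr1 went the other way, with 171 CPM in the Pomc-rich and 385 in the Pomc-free class.

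The leptin and insulin signaling list gave 3 genes higher, 1 lower and 11 that overlapped, of 15 measured, where 8.08% of all genes were higher and 6.80% lower. Stat3, the transcription factor downstream of the leptin receptor, averaged 148 CPM against 59.1, and Irs4 was also higher, whereas Irs1 was lower. Of 11 measured genes of prohormone processing, Pcsk2, a convertase that cuts POMC, and Pam, which amidates peptides, were higher and 9 overlapped. The G-protein-gated potassium channel genes Kcnj3 and Kcnj6 were higher, at 741 against 241 CPM for Kcnj3, and Kcnq5, Trpc5 and Kcnma1 were lower among 13 channel genes. Isl1, a transcription factor of the POMC lineage, was higher at 94.2 against 55.1 CPM, while Tbx3, another, stood at about the same level in both, 44.1 and 38.6 CPM.

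Against the same 8.08% higher and 6.80% lower of all genes, 6 of 9 measured neuropeptide genes overlapped between the classes, Tac1, the substance P gene, was higher in the Pomc-rich class at 82.7 against 52.9 CPM, and Tac2 and Sst were lower. Tac2 averaged 452 CPM in them and 12.5 CPM in the Pomc-rich nuclei, and Sst, the somatostatin gene, 171 and 66.5 CPM. Slc17a6, the vesicular glutamate transporter gene, and Slc32a1, the vesicular GABA transporter gene, were both lower in the Pomc-rich class, at 81.2 against 146 CPM and 19.7 against 56.4 CPM. By detection per nucleus, 8.22% of the Pomc-rich nuclei had UMIs of Slc17a6 without Gad1, Gad2 or Slc32a1, 45.7% had GABA genes alone, 21.5% had both and 24.7% had neither. The corresponding shares were 21.4%, 38.5%, 15.8% and 24.2% in the nuclei without Pomc, which were shallower. The largest ratios in favor of the Pomc-free class belonged to Hs3st4, Tac2, Sgcd, Col24a1, Adarb2 and Grik1, and those in favor of the Pomc-rich class to Cpne4, 9530026P05Rik, Cartpt, Sntb1, Ndst3 and Sox2ot.

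**Figure D3:**
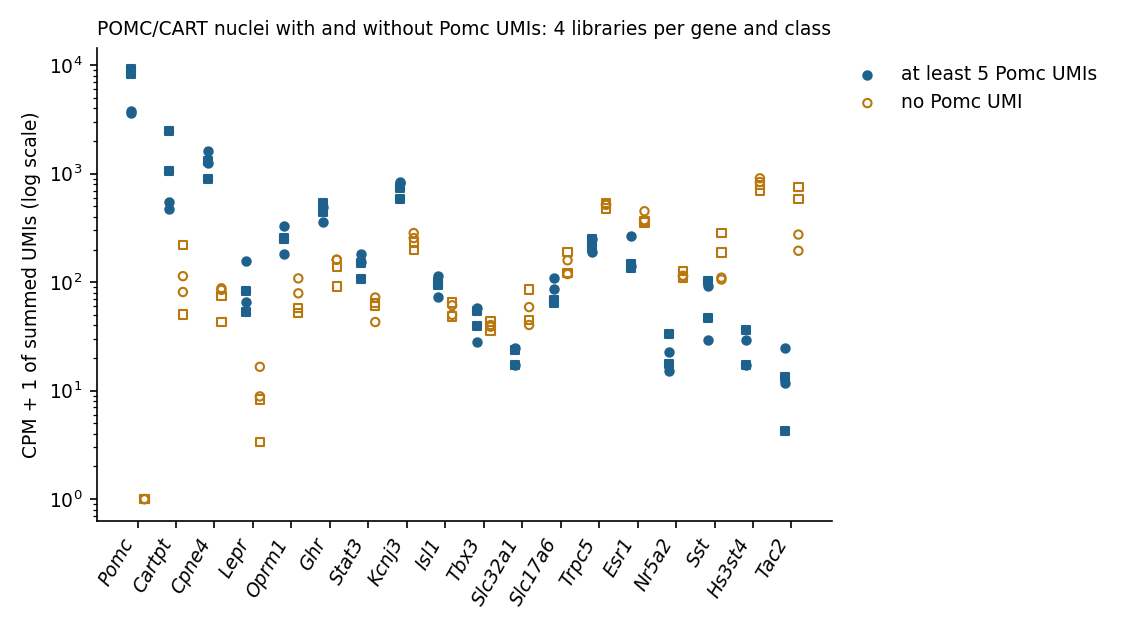
CPM + 1 of summed UMIs (y axis, log scale) of 18 genes in POMC/CART nuclei with at least 5 Pomc UMIs (filled blue) and with none (open brown), 4 libraries each, circles repeat 1 and squares repeat 2. Lepr averaged 88.9 and 8.27 CPM in the 2 classes and Tac2 12.5 and 452 CPM, while Tbx3 overlapped. Pomc is at 0 in the open class by construction.

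Unsupervised grouping of these nuclei, with the repeats centered, placed them in 8 groups, numbered here by falling Pomc level and not named as cell types. Each group held nuclei of all 4 libraries, and the genes that define them are given as a description. Groups 1 and 2, with 80 and 119 nuclei, had a Pomc UMI in 97.5% and 96.6% of nuclei. Group 1, at 9443 CPM of Pomc, was led after Pomc by Plxdc2, Gm32647, Cartpt and Sox6 and had 33.7 CPM of Esr1. Group 2, at 5815 CPM of Pomc, was led by Sntb1, Pcsk2, Etv1 and Zfp536 and had 177 CPM of Esr1. Lepr was at 105 and 83.1 CPM in these groups and at 21.2 CPM or less in the other 6.

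Groups 3 and 4, with 74 and 54 nuclei, had a Pomc UMI in 58.1% and 50% of nuclei and were led by Pde1c, Nfia and Sst and by Robo2, Tmem132c and Cdh9. The place of Sst in group 3 rests on WT 2, at 1115 CPM, since the other libraries had 30.4 (WT 1), 137 (TRα1+m 1) and 28.0 CPM (TRα1+m 2) against 115 CPM in the nuclei of the other groups. Groups 5 to 8, with 71, 104, 119 and 147 nuclei, had a Pomc UMI in 12.7%, 9.62%, 7.56% and 6.80% of nuclei, and none of their nuclei had 5. Groups 6 and 7 carried the Tac2 RNA, at 906 and 1272 CPM, together with 455 and 526 CPM of Esr1 and 800 and 822 CPM of Prlr. Group 7 also had the highest Nr5a2, at 290 CPM, and Pdyn, the prodynorphin gene, at 176 CPM. Groups 5 and 8 were led by Adarb2, Slc35f4 and Galnt14 and by Gm30382, Cntn3 and Nrxn3. At a coarser resolution that gave 5 groups, the 3 groups in which most nuclei had Pomc held all 219 nuclei with at least 5 Pomc UMIs, and at the resolution used they held 207.

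**Figure D4:**
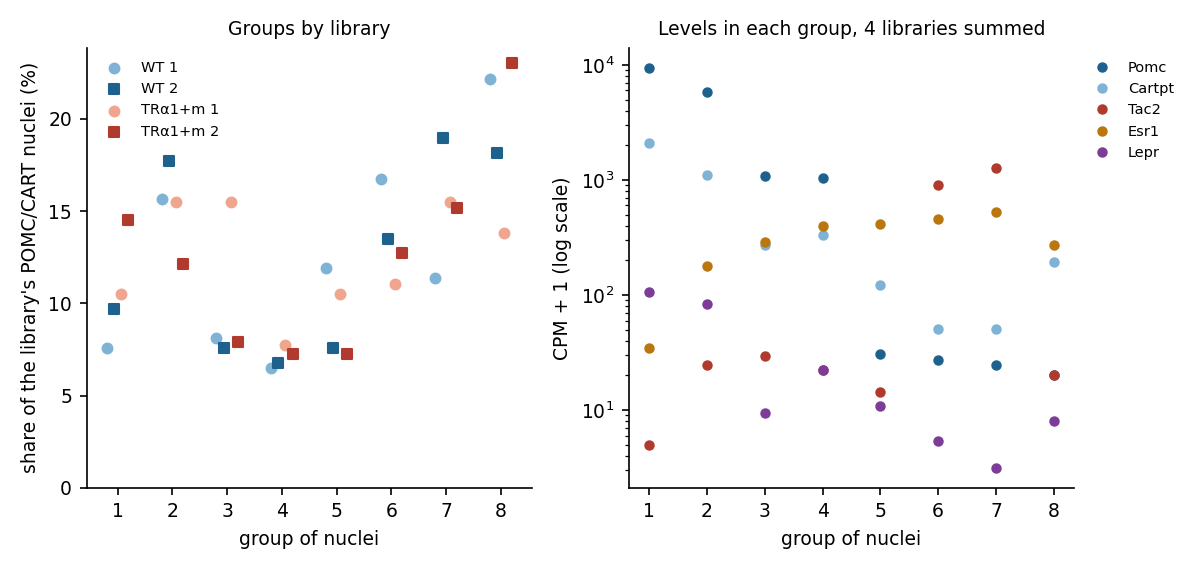
Left, share of each library's POMC/CART nuclei (percent) in each of 8 groups, blue WT and red TRα1+m, circles repeat 1 and squares repeat 2. Right, CPM + 1 (log scale) of 5 genes in each group with the libraries summed. Pomc falls from 9443 CPM in group 1 to 19.2 CPM in group 8, and Tac2 is highest in groups 6 and 7.

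The genotypes were compared first by number. POMC/CART nuclei made up 1.93% and 2.71% of Neurons_1 in WT 1 and WT 2, and 1.70% and 2.42% in TRα1+m 1 and TRα1+m 2. The means were 2.32% ± 0.548 and 2.06% ± 0.504 (SD, n = 2), the groups overlapped, and the share was lower in TRα1+m in both repeats. The log2 ratio was -0.17 (SE 0.407, edgeR quasi-likelihood F-test over the 14 sub-clusters, adjusted p = 0.992), and the fit with the repeat as a block gave the same ratio (SE 0.182, adjusted p = 0.749), so no difference in number was detectable at this size. An exact two-sided permutation test over the libraries gave p = 0.667, but 2 against 2 cannot go below 0.333 and so the test could not pass.

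Gene expression was compared between genotypes on UMIs summed per library. The sums took all nuclei under the label, called POMC/CART neurons below, although 60.8% of them had no Pomc UMI. With genotype alone in the model, edgeR called 0 of 9616 genes (0%) at an adjusted p of 0.05, and 209 genes (2.17%) had an unadjusted p below 0.05. DESeq2 also called 0, with 30 genes at an unadjusted p below 0.05. When the repeat was added as a block, which the design allows because each repeat gave a library of each genotype, edgeR called 49 genes (0.51%, and 7.11% had an unadjusted p below 0.05), 16 higher (0.166%) and 33 lower (0.343%) in TRα1+m. DESeq2 with the block called 1 gene (0.00503%), AC149090.1, and edgeR without the filter on low counts called 3 (0.0151%), A330008L17Rik, Galnt14 and AC149090.1. Within the Pomc-rich nuclei and within the nuclei without Pomc, edgeR without the block called 0 of 5463 and 0 of 7623 genes. No fit with the block is given for these classes.

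Pomc itself did not separate the genotypes. Its values, 1104 and 3595 CPM in WT against 1109 and 3302 in TRα1+m, overlapped, and its log2 fold change was -0.12 (SE 0.918, adjusted p = 1 by edgeR) and -0.09 (SE 0.0954) with the block. Cartpt stood at 193 and 1100 CPM in WT and 224 and 466 in TRα1+m, which also overlapped. Its log2 fold change was -0.93 (SE 1.07) without the block and -0.75 (SE 0.12, adjusted p = 2.03e-06 by edgeR) with it. DESeq2 with the block gave -0.55 (SE 0.679) and did not call it. The edgeR call with the block rests on repeat 2, since Cartpt was higher in TRα1+m in repeat 1 and lower in repeat 2. The edgeR SE with the block does not show this disagreement between the repeats. In GABA neurons Cartpt stood at 66.8 and 209 CPM in WT and 70.4 and 108 in TRα1+m. It was at 56.6 and 207 against 40.9 and 37.0 in NPY/AgRP neurons and 132 and 108 against 114 and 40.8 in oligodendrocytes. The genotype effect here differed from that in GABA neurons by -0.18 (SE 0.199) and from that in NPY/AgRP neurons by 0.93 (SE 0.298), and neither passed. Cartpt was the only gene of the 49 whose direction differed between repeats.

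The genes of smallest p among those whose groups did not overlap and whose direction matched in both repeats are given as values. Of all tested genes, 27.6% had groups that did not overlap, 15% with TRα1+m higher and 12.6% with TRα1+m lower. Piezo2, a mechanically gated ion channel gene, stood at 37.4 and 40.1 CPM in WT and 11.6 and 8.87 in TRα1+m. Its log2 fold change was -1.95 (SE 0.369, unadjusted p = 0.000661, adjusted p = 1 by edgeR), and with the block its adjusted p was 0.00042. Galnt14, which starts mucin-type O-glycans, stood at 66.5 and 83.3 CPM against 23.1 and 31.7, a log2 fold change of -1.48 (SE 0.293). Both were lower in TRα1+m in each repeat, as the selection required. Both passed with the block and not with genotype alone in the filtered fit.

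AC149090.1, on the unplaced scaffold JH584304.1, stood at 360 and 287 CPM in WT and 908 and 568 in TRα1+m, a log2 fold change of 1.17 (SE 0.249, adjusted p = 1 by edgeR). With the block it was 1.13 (SE 0.112, adjusted p = 9.01e-20), and without the block it was 0.76 when TRα1+m 1 was left out and 1.49 when TRα1+m 2 was. The same direction held outside this sub-cluster: GABA neurons had 466 and 243 CPM in WT and 962 and 607 in TRα1+m, and oligodendrocytes 149 and 114 against 278 and 163. The genotype effect in POMC/CART neurons differed from that in GABA neurons by -0.02 (SE 0.123, adjusted p = 1 by edgeR), with an estimate close to 0.

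The remaining 7 of the 10 genes had unadjusted p-values from 0.00204 to 0.00411. The cell adhesion genes Ncam2 and Pcdh11x had log2 fold changes of -0.48 (SE 0.11 and 0.113), Sema5a, a guidance cue gene, -0.76 (SE 0.188), and Dlg2, a postsynaptic scaffold gene, -0.32 (SE 0.0819). Dlg2 stood at 4186 and 4153 CPM in WT and 3308 and 3477 in TRα1+m, and did not pass with the block. Fam135b, Nup107, a nuclear pore gene, and 1700042O10Rik had -0.55, -1.55 and 1.60. Of these 10 genes, 9 passed with the block and none with genotype alone in the filtered fit. The rule that chose them favors a pass with the block. Without the block, Galnt14 and AC149090.1 passed when low counts were not filtered (adjusted p = 0.041 and 6.2e-11 by edgeR), and AC149090.1 passed when TRα1+m 2 was left out (adjusted p = 0.00154).

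**Figure D5:**
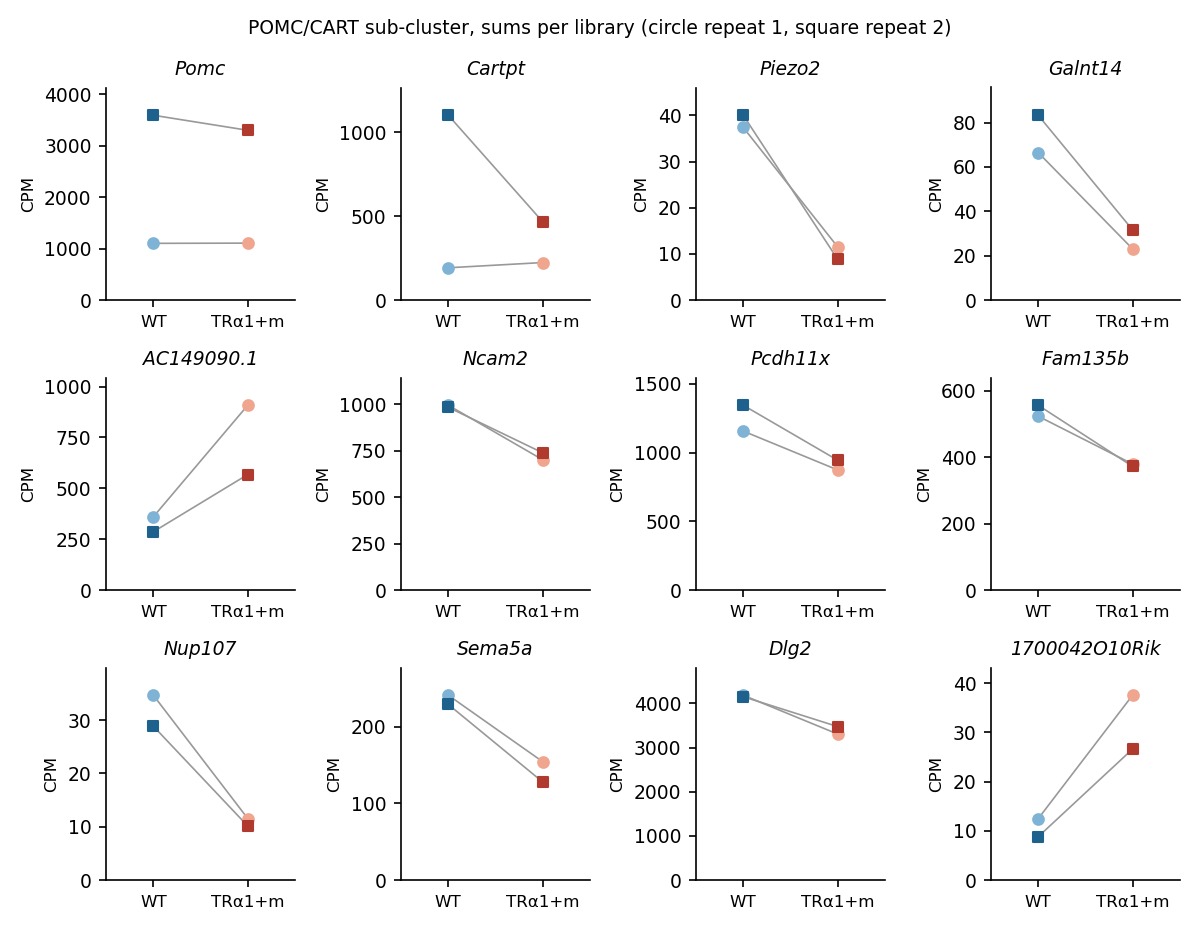
CPM per library in the POMC/CART sub-cluster for Pomc, Cartpt and 10 genes. The 10 have the smallest p among genes without overlap of groups and with the same direction in both repeats. Blue is WT, red TRα1+m, circles repeat 1 and squares repeat 2, and lines join the libraries of a repeat. The lines of the 10 genes run in the same direction in both repeats by selection. Those of Pomc are nearly flat, and those of Cartpt go opposite ways.

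The genes called with the block were set against the 2 classes of nuclei. Of the 33 genes lower in TRα1+m, 25 had a higher level in nuclei without Pomc than in Pomc-rich nuclei, and of the 16 higher genes 10 had a higher level in Pomc-rich nuclei. Over all 9616 genes tested the shares were 54.1% and 45.9%, and no test was made of the difference. Cpne4, which marked the Pomc-rich class at 1267 against 71.5 CPM, stood at 456 and 372 CPM in WT and 554 and 559 in TRα1+m, with a blocked log2 fold change of 0.42 (SE 0.112, adjusted p = 0.0417 by edgeR). Tmem163, at 284 CPM in Pomc-free and 66.2 CPM in Pomc-rich nuclei, stood at 294 and 208 CPM in WT and 165 and 160 in TRα1+m. Within the Pomc-rich nuclei Cpne4 stood at 1252 and 889 CPM in WT and 1618 and 1309 in TRα1+m, and within the nuclei without Pomc Tmem163 stood at 399 and 285 CPM in WT and 220 and 234 in TRα1+m. Neither pair of groups overlapped, and the share of Pomc-rich nuclei was 23.8% and 35.0% in WT and 22.7% and 30.9% in TRα1+m. Within these classes edgeR without the block called no gene, and no fit with the block is given for them.

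Mitochondrial genes had lower values in the mutant libraries. All 12 protein-coding mitochondrial genes tested had a negative log2 fold change, with a median of -0.36 against 0.00 over all genes. Of the 12, 8 were lower without overlap, against 12.6% of all genes. The 12 can move together and are not independent observations, and no test was made of the difference. The part of RNA from outside the nuclei was not tested. With the block mt-Co1, mt-Co2, mt-Co3 and mt-Atp6 passed, where 0.343% of all genes were called lower, and with genotype alone none did. Their sum was 9994 and 11296 CPM in WT and 8637 and 8482 in TRα1+m. The same sum was 9496 and 11558 against 8638 and 7528 in GABA neurons, and 23118 and 24447 against 19660 and 17884 in oligodendrocytes, so the lower level was seen across cell types. No mitochondrial gene passed in the test of POMC/CART against GABA neurons, where 0.0874% of all genes did.

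In the thyroid hormone pathway, the receptor gene Thra stood at 116 and 115 CPM in WT and 114 and 88.7 in TRα1+m. Thrb, which encodes the β receptor, stood at 323 and 344 CPM in WT and 267 and 222 in TRα1+m, with no overlap. Its log2 fold change was -0.47 (SE 0.165) and with the block -0.49 (SE 0.13, adjusted p = 0.0377 by edgeR). In the nuclei without Pomc it stood at 377 and 397 CPM in WT and 283 and 208 in TRα1+m, and in the Pomc-rich nuclei at 214 and 216 against 193 and 207. In GABA neurons Thrb was at 250 and 263 CPM against 243 and 244, and the difference of the genotype effects was -0.37 (SE 0.133, unadjusted p = 0.00553, adjusted p = 0.753 by edgeR). Of 13 pathway genes tested, 6 had higher and 7 lower values in TRα1+m, the median log2 fold change was -0.01, and Thrb was the only call with the block, where 0.51% of all genes were called.

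Genes known to respond to thyroid hormone were thinly counted. Of 12, 6 could be tested, 2 with higher and 4 with lower values in TRα1+m, a median log2 fold change of -0.40 and no call with or without the block. Of all genes, 0.51% were called with the block and 0% without it. Camk4, the most abundant, stood at 193 and 201 CPM in WT and 234 and 223 in TRα1+m, a log2 fold change of 0.19 (SE 0.163). Klf9, a direct target of thyroid hormone receptors in many tissues, stood at 38.8 and 36.0 CPM in WT and 30.3 and 13.9 in TRα1+m, a log2 fold change of -0.79 (SE 0.406). Hr, another, was at 4.16 and 6.41 CPM against 2.89 and 1.27, under the count filter.

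The listed genes by which POMC neurons sense energy state gave no call, where 0% of all genes were called without the block and 0.51% with it. At these shares, 0 calls does not set a short list apart. Of 20 receptors tested, 8 had higher and 12 lower values in TRα1+m, with a median log2 fold change of -0.06 and 0 calls with or without the block. Without overlap, 1 was higher and 6 were lower, against 15% and 12.6% of all genes, and no test was made of the difference. Lepr had the lowest unadjusted p of those with lower values: 55.4 and 36.0 CPM in WT against 21.7 and 21.5 in TRα1+m, a log2 fold change of -1.07 (SE 0.36, adjusted p = 1, and 0.0908 with the block, by edgeR). Adra1a, the α1A adrenergic receptor gene, stood at 15.2 and 16.8 CPM against 44.8 and 31.7, a log2 fold change of 1.21 (SE 0.357). Neither pair of groups overlapped. Among 22 signaling genes the median was -0.02, among 12 processing genes -0.04 and among 16 channel genes -0.03. Each list had 0 calls in both fits, against the same 0% and 0.51% of all genes.

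Among transmitter genes, Gad2, which makes GABA, stood at 141 and 163 CPM in WT and 103 and 110 in TRα1+m, a log2 fold change of -0.54 (SE 0.193). None of the 6 tested passed in either fit, where 0% of all genes were called without the block and 0.51% with it. Of 17 neuropeptide genes tested, 5 had higher and 12 lower values, with a median of -0.25. Avp and Hcrt, peptides of other hypothalamic neurons, passed with the block, where 0.343% of all genes were called lower. Hcrt stood at 212 and 92.1 CPM in WT and 150 and 35.5 in TRα1+m here, and at 404 and 309 against 376 and 196 in oligodendrocytes, which do not make it. The part of free RNA in these 2 calls was not tested. Of the 7 genes that the study named between genotypes in neuronal sub-clusters, which were chosen on these same libraries and so are not independent evidence, AC149090.1, mt-Atp6 and mt-Co3 passed with the block, where 0.51% of all genes were called, and Grm8, Lrrtm4 and Oxt were among those that did not.

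Whether the genotype effect in the POMC/CART sub-cluster differed from that of other neurons was tested by an interaction, with the library as a block. The sums took all nuclei under the label, 60.8% of which had no Pomc UMI. Against GABA neurons, 15 of 17161 genes (0.0874%) passed. The effect in POMC/CART neurons was more positive in 8 (0.0466%) and more negative in 7 (0.0408%). In all 15 the larger move of the means lay in the POMC/CART neurons, the smaller set. GABA neurons numbered 15042 nuclei, and the part of counting noise in this split was not tested. Piezo2 had a difference of -2.28 (SE 0.393, adjusted p = 0.000111 by edgeR), with 15.5 and 10.3 CPM in WT and 21.1 and 10.9 in TRα1+m GABA neurons. Serpini1, which encodes the serine protease inhibitor neuroserpin, had -0.87 (SE 0.166), with 139 and 195 CPM in WT against 85.2 and 108 in TRα1+m POMC/CART nuclei and 82.7 and 105 against 93.1 and 105 in GABA neurons. Cntnap5b and Gpc5, a glypican gene, had 1.16 (SE 0.21) and 0.64 (SE 0.146), and the Gpc5 value was 0.26 without TRα1+m 1. Ust, a uronyl sulfotransferase gene, stood at 48.5 and 49.7 CPM in WT and 91.0 and 88.7 in TRα1+m, and its difference was 0.90 (SE 0.214). These counts were fragile: without WT 2 no gene passed, without TRα1+m 1 only 2 did, and none passed with bias-adjusted deviances.

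Against NPY/AgRP neurons, the opposing arm of the melanocortin system, 24 of 10121 genes (0.237%) passed, 6 positive (0.0593%) and 18 negative (0.178%). In 20 of the 24 the larger move of the means lay in the NPY/AgRP neurons, the smaller set at 510 nuclei. The part of counting noise was not tested here either. Unc13c, a synaptic vesicle priming gene, stood at 51.3 and 40.1 CPM in WT and 31.8 and 31.7 in TRα1+m POMC/CART nuclei, and at 15.9 and 16.1 against 141 and 67.0 in NPY/AgRP nuclei, a difference of -3.11 (SE 0.421, adjusted p = 0.000201 by edgeR). Pde10a, a phosphodiesterase gene, had 992 and 898 CPM against 733 and 806 here and 244 and 305 against 641 and 481 there, a difference of -1.28 (SE 0.174). Of the listed channel genes, Kcnq3 passed, at 360 and 360 CPM in WT and 416 and 466 in TRα1+m here, and 832 and 862 against 466 and 596 there. Tmem163 and Klhl1 were among the 4 genes whose larger move lay in the POMC/CART nuclei. Without TRα1+m 2 5 genes passed, without TRα1+m 1 13 did and without WT 2 37 did. Pomc had a difference of -1.28 (SE 0.292, adjusted p = 0.0593 by edgeR), where Pomc in NPY/AgRP nuclei was at 23.0 and 30 CPM in WT and 31.8 and 84.6 in TRα1+m.

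More genes passed between the repeats than between the genotypes. With genotype in the model, 828 of 9616 genes (8.61%) differed between repeats by edgeR, 380 higher (3.95%) and 448 lower (4.66%) in repeat 2, and 51 of 4081 (1.25%) did by DESeq2, 21 higher (0.515%) and 30 lower (0.735%). Within the Pomc-rich nuclei 175 of 5463 genes (3.2%) passed by edgeR, 76 higher (1.39%) and 99 lower (1.81%). This comparison was added after the data had been seen. Pomc had the smallest p, with a log2 difference of 1.60 (SE 0.0971, adjusted p = 6.91e-56 by edgeR), and it was about 3 times as high in repeat 2 in both genotypes. Cartpt and Tac2 were higher in repeat 2 by 1.79 and 1.22 on the log2 scale, and Pgrmc1 by 1.68. Oxt, the metallothionein genes Mt1 and Mt3 and ribosomal protein genes such as Rps29 and Rpl38 were lower, by -2.91, -1.94, -2.21, -2.00 and -1.93.

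Other measures moved with the repeat. Agrp and Npy were called lower in repeat 2 (median log2 difference -1.11), as were Pmch and Hcrt (-1.09). Of 5 astrocyte markers 2 were called lower (median -0.66), where 4.66% of all genes were. The tested markers of oligodendrocytes, microglia and neurons of any kind gave 0 calls. Malat1, a nuclear RNA, made up 2.78% and 2.60% of UMIs in the repeat 1 libraries and 1.20% and 1.83% in repeat 2, and ribosomal protein genes 1.30% and 1.35% against 0.997% and 0.798%. Pomc in oligodendrocytes, which do not make it, stood at 37.0, 40.5, 41.4 and 27.3 CPM in WT 1, WT 2, TRα1+m 1 and TRα1+m 2. In GABA neurons it was 16.3, 24.6, 19.1 and 41.8 CPM, higher in repeat 2 of each genotype. The part of free RNA in the difference between repeats was not tested. Within the Pomc-rich nuclei Pomc was at 3612 and 3789 CPM in repeat 1 and 9188 and 8380 in repeat 2. Animals, processing and sequencing of a repeat cannot be told apart.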

How the data were processed

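Single-nucleus RNA-seq of 4 hypothalamus libraries was used, each a pool of 3 mice. The authors counted UMIs per gene with Cell Ranger 5.0.1, introns included, on mm10 (GRCm38), and deposited raw counts without normalization, with an annotation table that leaves out shallow nuclei, nuclei rich in mitochondrial reads and predicted doublets. Doublets were not called again. The authors' clusters were used as deposited.

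UMIs of the POMC/CART nuclei were summed per library (692638 to 1248280 UMIs). Sums were tested with edgeR 4.0.16 in R 4.3.3 (filterByExpr, TMM, robust quasi-likelihood F-test, two-sided, Benjamini-Hochberg over all genes kept, adjusted p 0.05), and DESeq2 1.42.0 was an alternative. Positive log2 values are higher in TRα1+m. CPM are UMIs per 1000000 of the summed nuclei. The 3′ UMIs are not scaled by length, so levels are compared within a gene. Interactions used 8 sums with library as block. Scripts were tested on simulated data. With 2 pools a genotype, p-values rest on variation shared across genes as well as on the spread of each gene's pools. Where genotype and repeat are both in the model, a very small p-value does not measure the spread of pools alone.

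The study's methods pair a WT and a TRα1+m library in each repeat, and the differences between repeats correlated between the genotypes across 9616 genes (Pearson r = 0.432), so a replicate block was fitted as an alternative.

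Groups of nuclei came from scanpy 1.11.5: 2000 variable genes, values centered by repeat, 10 principal components, 15 neighbors and Leiden resolution 0.6 (0.3 and 1.0 as checks). Gene positions came from GENCODE M21, matched by identifier for 32235 of 32285 genes. Named genes were, by level, the 25 with the highest ratio over 11 other neuronal sub-clusters with at least 10 nuclei per library among genes of at least 50 CPM; by genotype, all calls and then the 10 of smallest p without overlap and with the same direction in both repeats; by interaction, at most 10 calls by size; and members of the gene lists. The nuclei, lists and rules were chosen with earlier results of these data known. The study's own lists of differential genes were not used. Values of some listed genes are not reported here.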

Additional observations from a re-analysis of the deposited data

Results flagged for a closer look

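The genotype effect (TRα1+m over WT, log2) in POMC/CART neurons differed from that in NPY/AgRP neurons, by a test of the difference itself, for Unc13c (-3.11), Epha3 (3.04), A330008L17Rik (-2.88), Dach1 (-2.06), Il1rapl2 (-1.39), Pde10a (-1.28), Nos1ap (1.24), Klhl1 (-1.14), Tmem163 (-1.13) and Nrg1 (-1.12), the 10 largest of 24. Leaving out a library moved 4 of these values by over 1.5 times: without TRα1+m 2, Epha3 was 1.47, Dach1 -1.31 and A330008L17Rik -1.83, and without WT 2, Nrg1 was -0.71 and A330008L17Rik -7.81, where the WT library left in NPY/AgRP nuclei was at 0 and the size depends on the prior count. Epha3, an ephrin receptor gene, stood at 24.9, 12.8, 7.22 and 22.8 CPM in POMC/CART nuclei of WT 1, WT 2, TRα1+m 1 and TRα1+m 2, and at 271, 172, 31.8 and 15.9 CPM in NPY/AgRP nuclei. Il1rapl2 stood at 1194, 920, 1040 and 1017 CPM in POMC/CART nuclei and at 90.3, 128, 261 and 321 CPM in NPY/AgRP nuclei.

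Against GABA neurons the effect differed for Piezo2 (-2.28), Parp16 (-2.06), 1700042O10Rik (1.61), Cntnap5b (1.16), Galnt14 (-1.15), Pknox2 (-1.02), Ust (0.90), Serpini1 (-0.87), A330008L17Rik (-0.79) and Gpc5 (0.64), the 10 largest of 15. Here A330008L17Rik was -0.32 without WT 2, and Gpc5 was 0.26 without TRα1+m 1. A330008L17Rik stood at 147, 256, 80.9 and 128 CPM in POMC/CART nuclei, at 87.6, 90.5, 69.6 and 87.1 CPM in GABA neurons and at 0, 13.8, 11.4 and 47.6 CPM in NPY/AgRP nuclei of WT 1, WT 2, TRα1+m 1 and TRα1+m 2. None of the 15 passed in all 4 fits that each left out a library, and 3 of the 24 did.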

How the results depend on the processing

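With 2 pools per genotype and 692638 to 1248280 UMIs per sum, the power to detect small differences is limited. The count of genotype calls, 0, stayed 0 with RLE factors, DESeq2, bias-adjusted deviances, equal numbers of nuclei, at least 20 Pomc UMIs (3963 genes) and at least 5 or no Pomc UMI. It was 3 without the filter on low counts, 49 with the replicate block, 52 with bias-adjusted deviances and the block, 1 (AC149090.1) with DESeq2 and the block and 1 (AC149090.1) with a rank sum test over nuclei, which are not replicates. It was 0 to 1 with each library left out, the 1 being AC149090.1 without TRα1+m 2. RLE factors moved the median log2 fold change of all genes by less than 0.1. The settings with at least 5 or no Pomc UMI, and the block with DESeq2 or bias-adjusted deviances, were chosen after seeing the data.

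Against NPY/AgRP neurons, the 24 calls became 41 without the filter and 5 to 37 with each library left out (31 without WT 1, 37 without WT 2, 13 without TRα1+m 1, 5 without TRα1+m 2). Against GABA neurons, the 15 calls became 9 without the filter, 0 with bias-adjusted deviances and 0 to 13 with each library left out. The 828 calls between repeats became 51 with DESeq2 and 175 in nuclei with at least 5 Pomc UMIs, where fewer genes and nuclei entered. The cause of the other moves was not tested.

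Signs turned for Pomc (-1.08 to 0.93 with each library left out; 0.93 without WT 2 and 0.44 without TRα1+m 1), Cartpt (-1.68 to 0.78), Lrrtm4 (-0.31 to 0.0907), mt-Atp6 (-0.68 to 0.0134) and Oxt (-2.59 to 1.48; 0.15 with at least 5 Pomc UMIs). Grm8, at 0.03, was -0.58 with at least 20 and -0.18 with at least 5 Pomc UMIs, -0.00184 with the block, -0.00181 with bias-adjusted deviances and the block, -0.00938 with DESeq2 and the block and -0.37 to 0.35 with each library left out. The share of POMC/CART nuclei among neurons, a log2 ratio of -0.17, ranged from -0.44 to 0.0902 with each library left out (0.0902 without WT 2, 0.0592 without TRα1+m 1), and the replicate block changed neither its value (-0.17) nor its call (adjusted p = 0.749). The share of nuclei with at least 20 Pomc UMIs, 16.9%, was 6.41% after thinning to 2000 UMIs, 28.5% at 5 UMIs and 39.2% at 1 UMI.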
